A study of Homo sapiens with 34 samples.

Results

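In androgen-independent LNCaP prostate cancer cells, 4331 stretches of the autosomes carried the histone mark H3K27me3 in both peak lists while neither list of the androgen-dependent cells had a peak there. They were found by intersecting the 2 lists of the androgen-independent cells (AI) base by base, removing every base of the 2 lists of the androgen-dependent cells (AD), and keeping segments of 2000 bp or more on chromosomes 1 to 22. The 4 lists together held 134658 merged regions. For comparison, 3150 segments were found in AD only by the mirrored rule and 9089 lay in all 4 lists. The marking in AI and its absence in AD are the values these segments were chosen by, and are described without a test.

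H3K27me3 is trimethylation of lysine 27 of histone H3. Polycomb repressive complex 2 places it through its enzyme subunit EZH2, and it is typical of genes that are held silent, above all regulators of development and genes of other tissues. It can lie in sharp domains over CpG-rich gene starts or as broad, low blankets over inactive genes and the DNA between genes. In prostate cancer EZH2 is often abundant in advanced disease.

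LNCaP is an established human prostate cancer line with luminal features whose growth depends on androgen. AD cells were LNCaP in RPMI1640 medium, and AI cells were an androgen-independent LNCaP line kept in the same medium with charcoal-stripped serum, which lacks most steroids. The line and the serum therefore differ together and cannot be told apart. H3K27me3 chromatin immunoprecipitation (ChIP) had 2 samples a line, and EZH2 ChIP had 2 in AD and 1 in AI. RNA-seq had 2 libraries in each of 6 groups: untreated AD and AI cells, and both lines 24 h after transfection with a mock siRNA or with siRNA against EZH2 (siEZH2). The treatment label names LNCaP/abl alone, which is androgen-independent, as the transfected cells, yet some transfected libraries are titled AD; the titles were followed. No label says that replicates were separate cultures, so all p-values measure the spread between these libraries, which may be technical.

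Of the genes that began inside such a segment, the 4 with the largest called RNA differences between the lines were FSD1, SLITRK3, ADORA1 and FOXD1, and their promoters are shown so that the CpG content of starts marked in AI only can be seen. They are the 250 bases before the annotated start, 5′ to 3′ on the gene's strand, from RefSeq (GRCh38.p14), with CG dinucleotides in capitals.
FSD1 (chr19:4304348-4304597, plus strand): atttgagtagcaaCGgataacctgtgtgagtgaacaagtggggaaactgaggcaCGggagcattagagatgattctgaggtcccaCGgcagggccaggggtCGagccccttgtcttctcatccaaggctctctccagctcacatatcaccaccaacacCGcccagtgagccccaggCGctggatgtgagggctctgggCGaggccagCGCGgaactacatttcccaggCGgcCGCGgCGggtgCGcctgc
SLITRK3 (chr3:165197110-165197359, minus strand): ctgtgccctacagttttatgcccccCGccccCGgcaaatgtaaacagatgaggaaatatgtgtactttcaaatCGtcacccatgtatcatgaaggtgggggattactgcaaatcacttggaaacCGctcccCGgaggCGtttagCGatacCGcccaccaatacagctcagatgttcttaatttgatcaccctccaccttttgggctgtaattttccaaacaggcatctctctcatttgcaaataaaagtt
ADORA1 (chr1:203127476-203127725, plus strand): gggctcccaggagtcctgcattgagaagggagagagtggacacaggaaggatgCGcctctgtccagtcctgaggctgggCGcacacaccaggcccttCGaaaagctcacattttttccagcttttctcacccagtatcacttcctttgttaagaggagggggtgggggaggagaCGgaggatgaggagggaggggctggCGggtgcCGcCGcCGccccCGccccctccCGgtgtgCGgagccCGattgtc
FOXD1 (chr5:73448778-73449027, minus strand): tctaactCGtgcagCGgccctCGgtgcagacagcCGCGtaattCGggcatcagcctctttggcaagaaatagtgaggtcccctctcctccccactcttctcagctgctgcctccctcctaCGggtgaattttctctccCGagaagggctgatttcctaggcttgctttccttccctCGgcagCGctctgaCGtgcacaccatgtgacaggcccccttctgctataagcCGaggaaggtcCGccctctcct
These windows held 14, 8, 12 and 13 CG dinucleotides in the order shown, with observed/expected ratios of 0.6, 0.61, 0.49 and 0.63. The androgen receptor motif AGAACA, or TGTTCT on the other strand, occurred once, in SLITRK3. Over windows of 250 bases before and 50 after the start, 14.9% of the promoters of the 74 coding genes whose start lay in an AI-only segment and 11.2% of all coding promoters held it, and none of the 74 held the full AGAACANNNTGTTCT. A match is a description and no evidence of binding.

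The AD lists held 122813 and 72027 peaks over 227.9 and 183.2 Mb, and the AI lists 69763 and 70477 peaks over 226.3 and 211.5 Mb. AI peaks were longer, with means of 3244 and 3001 bp against 1855 and 2543 bp in AD. RNA depth was estimated at 17.4 to 58.1 M reads for untreated and 7.5 to 12.7 M for transfected libraries. Luminal prostate markers fitted the label, with 15 of 16 at a mean of 1 RPKM or more (reads scaled by gene length and library depth), while 0 of 10 blood or stromal markers reached it. Of basal and neuroendocrine markers 3 of 9 and 2 of 12 reached it. Their summed values were at most 12.9 and 52.1 RPKM in a library, against at least 2710.5 for luminal markers.

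The AI-only segments were mostly short. They covered 13.06 Mb, with a median of 2614 bp and a longest of 24442 bp. Only 246 (5.7%) reached 5 kb and 24 reached 10 kb, against 1311 (14.4%) and 107 of the segments in all 4 lists. The length minimum left out 56971 shorter stretches. At its edge, 489 segments of 2000 to 2099 bp were kept and 581 of 1900 to 1999 bp were not. The AI peaks that held the segments had median authors' scores of 478 and 464.8, against 148.7 and 141.7 over all peaks of their lists. They were also longer, as the length minimum requires, with medians of 5066 and 4406 bp against 2144 and 2005 bp. All AI peaks of 5 to 10 kb had median scores of 823 and 810.

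Most of them lay next to or close to chromatin that AD cells also marked. Of the 4331, 1983 (45.8%) touched an AD peak, 596 (13.8%) lay within 1 kb of one and 918 (21.2%) at 1 to 5 kb. A group of 834 (19.3%) stood 5 kb or more away, and 254 of these stood 50 kb or more away. AD peaks lay within 1 kb on both sides of 812 segments (18.7%) and on a single side of 1767 (40.8%). Many segments were thus margins of, or gaps between, AD domains at the resolution of the peak calls. AD-only segments stood further from the other line's peaks: 13.7% touched an AI peak and 54.0% were 5 kb or more away. The AD lists together held 129656 merged regions over 293.2 Mb, and the AI lists 82424 over 287.6 Mb. With more and shorter regions in AD, an AD peak is more often near, and the part of this in the contrast was not tested.

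Chromosome 9 held an unusual part of them. It carried 320 of the AI-only segments (7.4%), against 1.7% of those in all 4 lists and 1.0% of those in AD only. Of the bases marked in both AI lists on chromosome 9, 18.6% lay in AI-only segments, compared with 12.5% on chromosome 2, the next highest, and 3.69% on chromosome 16, the lowest. The excess was visible in the lists themselves, since chromosome 9 held 3.56% and 3.67% of the bases of the AI lists and 2.33% and 2.36% of the AD lists. Chromosome 9 segments were spread unevenly along its length, with 40 in the first 20 Mb, 100 from 20 to 40 Mb and 84 from 60 to 80 Mb. Fewer lay further on, with 17 from 80 to 100 Mb, 48 from 100 to 120 Mb and 31 from 120 to 140 Mb. Chromosome 9 segments touched the bodies of PTPRD, a receptor phosphatase of synapses, MLLT3, a reader of acylated histones, and TLE1, a corepressor. Whether the lines carry different copy numbers of the chromosome was not tested. Chromosome 7 held the most segments of any chromosome, 464 (10.7%).

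**Figure D1:**
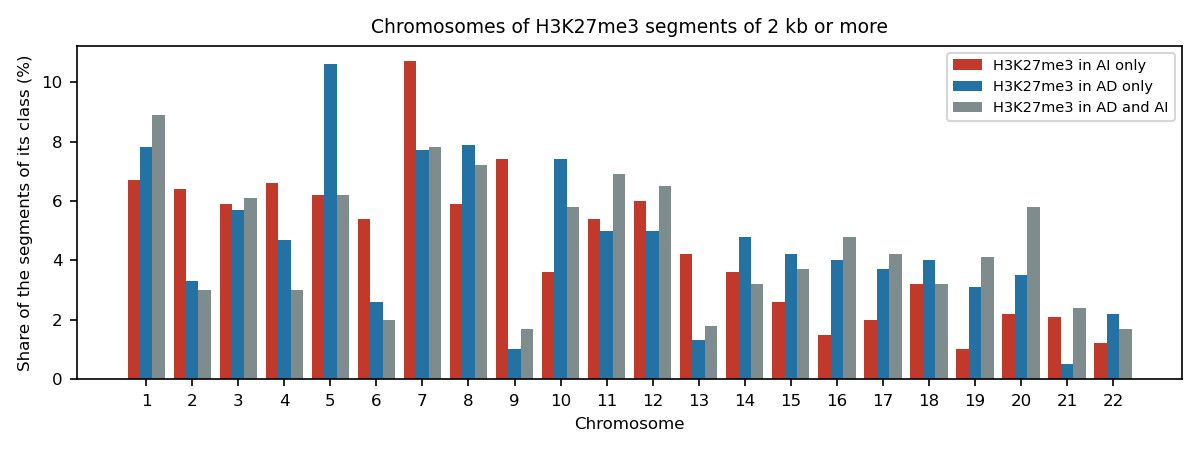
Share of H3K27me3 segments of 2 kb or more on each autosome, as a percentage of the segments of its class (bars), for segments in AI only, in AD only and in both lines. Chromosome 9 holds 7.4% of the AI-only class and 1.0% and 1.7% of the other classes.

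EZH2 peaks, which the choice did not use, were scarce on the AI-only segments and far more common on the longest of them. A peak of the first AD list overlapped 3.93% of the AI-only segments (95% exact interval 3.37 to 4.55%, counting error only), 17.43% of those in AD only and 19.36% of those in all 4 lists. The second AD list gave 1.59%, 3.68% and 4.72%, and the single AI list 1.43%, 2.41% and 4.27%. In all 3 EZH2 lists the AI-only class was lowest. Segments are not replicates, so these are shares of this one set of peak lists. The EZH2 lists were of unequal size, with 53638 and 12317 peaks in AD and 11852 in AI, so shares compare within a list only.

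Length changed this picture. The share of AI-only segments with a peak of the first AD list was 1.83% at 2 to 3 kb, 4.77% at 3 to 5 kb, 18.92% at 5 to 10 kb and 75.0% (18 of 24; interval 53.29 to 90.23%) at 10 kb or more. Segments in all 4 lists rose from 10.51% to 64.49% over the same lengths, so the AI-only intervals lay below those of the other classes from 2 to 10 kb and overlapped them at 10 kb or more. In the AI list the long AI-only segments held a peak in 6 of 24 (interval 9.77 to 46.71%). Longer segments also offer more bases to overlap, and the part of that in the trend was not tested.

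**Figure D2:**
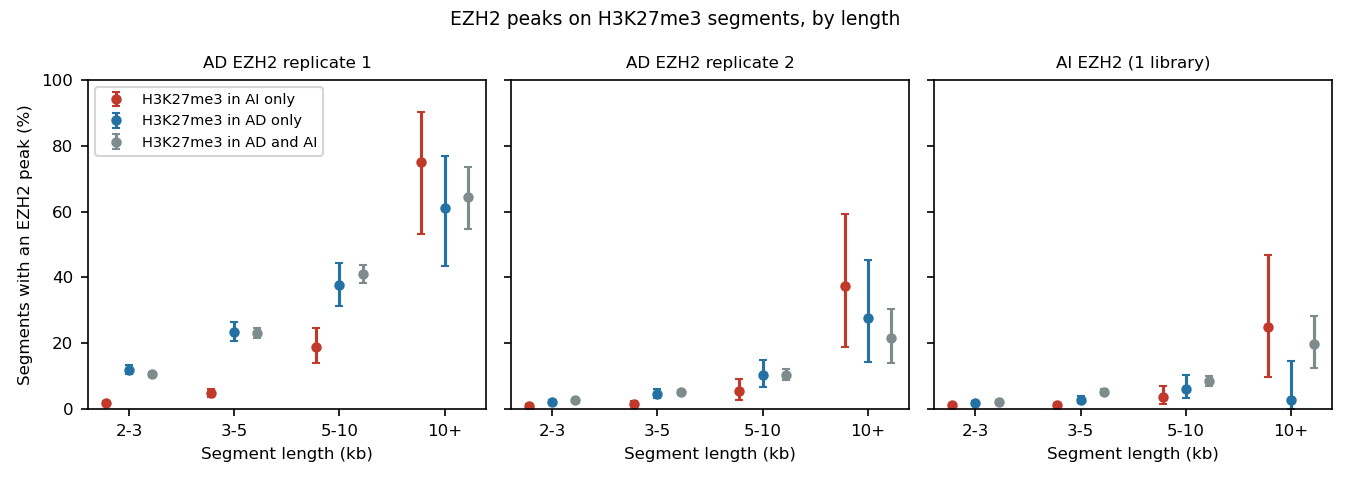
Percentage of H3K27me3 segments that overlap an EZH2 peak, by segment length in kb, for each EZH2 peak list. Points are the 3 classes of segment and bars are 95% exact binomial intervals. AI-only segments sit lowest up to 10 kb and reach 75.0% in the first AD list at 10 kb or more.

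All 10 longest segments overlapped an EZH2 peak of the first AD list, although AD cells had no H3K27me3 peak on them. The smaller second AD list overlapped only those at ONECUT3, PEPD and TCERG1L, and the AI list only those at TAFA5 and MUC12. The longest, chr19:1744602-1769043 (24442 bp, GRCh38), covered 15538 bp of ONECUT3, which encodes a homeodomain transcription factor of neurons. It held 7 peaks of the first AD EZH2 list, 1 of the second and none of the AI list, and the nearest AD H3K27me3 peak was 18879 bp away. The authors' scores of the AI peaks on it were 72.74 and 3100, so the 2 samples differed widely in strength there. ONECUT3 RNA was uneven between replicates, at 8.8 and 1.19 RPKM in AD and 7.24 and 1.52 in AI without transfection, and the lines did not separate.

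A segment at LHX8, a LIM homeobox gene of forebrain and tooth development, also stood apart from AD marking. It spanned chr1:75124415-75141754, including the gene's start, and lay 7634 bp from AD H3K27me3. The LHX8 segment carried 2 EZH2 peaks of the first AD list and none of the second AD list or the AI list. The segment at MB21D2, an uncharacterised gene of the cGAS-like family, differed: it filled a gap of AD marking at chr3:192910735-192928698, with AD peaks 92 and 519 bp from its ends. Its gene was close to silent, at 0 to 0.07 RPKM in all 12 libraries. KCNK10, which encodes a background potassium channel, was also under 0.5 RPKM in every library.

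PEPD, which encodes the dipeptidase that splits proline-ending dipeptides, lay beside the second longest segment, chr19:33521698-33541668. Nearly all of it was upstream: 19877 bp before the annotated start and 93 bp after it. The authors' scores of the AI peaks on this segment were 742.9 and 58.5, so the samples differed widely in strength there. PEPD was fully expressed, at 21.13 and 20.13 RPKM in AD and 29.94 and 26.53 in AI without transfection, a rise of 0.44 ± 0.11 (difference of log2(RPKM + 0.5) ± SE; limma, adjusted p = 0.011). Mock libraries gave 27.84 and 32.17 in AD and 30.51 and 29.06 in AI, which overlap.

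**Figure D3:**
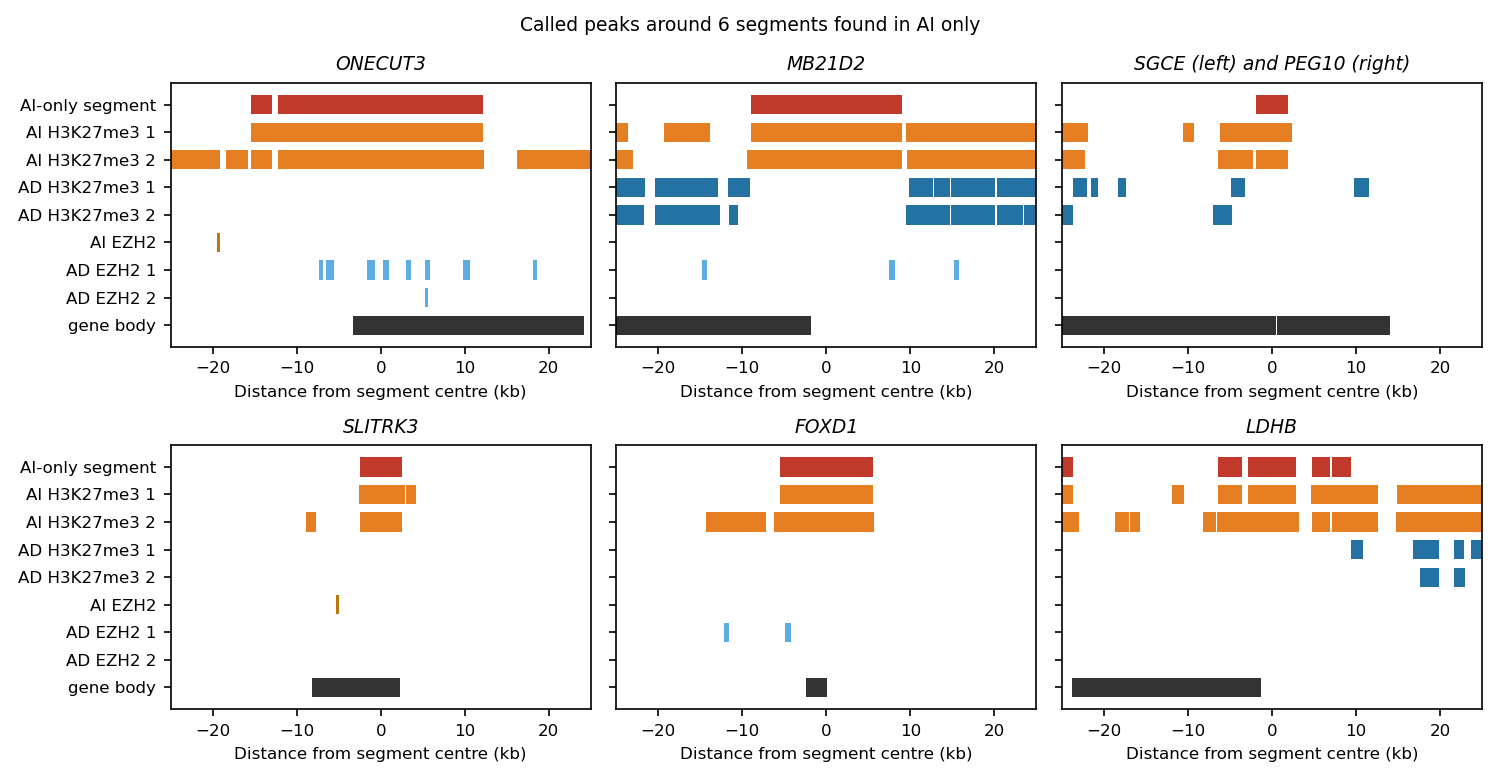
Called peaks within 25 kb of the centre of a segment at ONECUT3, MB21D2, SGCE and PEG10, SLITRK3, FOXD1 and LDHB. Rows are the AI-only segments, the H3K27me3 lists of AI and AD, the EZH2 lists and the gene body, and the axis is distance from the segment centre in kb. AD EZH2 peaks stand under the ONECUT3 segment, and AD H3K27me3 peaks flank the MB21D2 segment closely on both sides.

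Genes under the segments were long and mostly silent. Of the segments, 45.0% overlapped a protein-coding gene and 38.5% no annotated gene. In the RefSeq table (GRCh38.p14), 1488 of 56756 autosomal genes shared a base with a segment, among them 874 protein-coding genes and 527 long noncoding RNA genes. Their coding members had a median length of 160453 bp, against 24476 bp over all coding genes. Coding genes with a segment of all 4 lists were long as well, with a median of 110554 bp. An AI-only segment lay on 1.5% of coding genes under 50 kb and 6.5% of those from 50 to 200 kb. The share was 22.9% from 200 to 500 kb and 45.9% at 500 kb or more. Most coding members held a single segment (519 of 874), while 28 held 10 or more. PCDH9, a protocadherin of neurons, held the most, 26. CACNA2D1, a calcium channel subunit, and ADAMTS6, a secreted metalloprotease, held 22 each. Membership does not mean that a gene was marked in AI alone. Only 256 of the 1488 members (17.2%) had no base in any AD peak. A further overlap, with a segment of all 4 lists, was found for 605 members (40.7%). At CSMD1 AD peaks covered 42.05% and 30.44% of the body and AI peaks 21.31% and 18.37%. At PLOD2 the values were 26.97% and 22.46% in AD and 19.03% and 20.92% in AI.

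Neuronal adhesion and synapse genes were the fixed list with the most members: 34 of 60 shared a base with a segment, against 4.6% of all coding genes. The list was written with earlier results of these data known, and its genes are very long (median 943 kb). At 500 kb or more, 27 of 44 on the list (61.4%) were members, beside the 45.9% of all coding genes of that length. The same list was also marked in both lines, with 43 of 60 genes overlapping a segment of all 4 lists. Of the 34 members, 32 were in the RNA table and 26 stayed under 0.5 RPKM in every library. Of these, 4 had their start inside a segment: CDH7, a cadherin, CNTN5, a contactin, GRIK2, a kainate receptor subunit, and PTPRD. GRIK2 carried 6 segments, and the one at its start (chr6:101391255-101395582) lay 462045 bp from any AD peak. Its RNA ranged from 0.05 to 0.13 RPKM over the 12 libraries.

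The other fixed lists had 0 to 3 members each, and their shares are read beside the 4.6% of all coding genes. Polycomb machinery gave 0 of 12 genes of the list of Polycomb repressive complex 2 and the H3K27 demethylases, and 1 of 18 (5.6%) of complex 1. Of the 14 genes of the first of these lists that were tested for RNA, with those on the X chromosome, 3 rose and 3 fell in untreated AI, where 22.2% of all genes rose and 12.4% fell. In mock 1 rose and 10 fell, where 12.2% of all genes rose and 43.5% fell. The untreated rises were EZH2, SUZ12 and RBBP7, and the falls were EPOP, PHF1 and the demethylase KDM6B. In mock AEBP2 rose. The mock falls were EZH2, SUZ12, EED, JARID2, RBBP4, RBBP7, EPOP, PHF19, PHF1 and the demethylase KDM6A. The complex 1 member was BMI1, a ring finger subunit of complex 1, with 48.51% of its body inside a segment of 5146 bp. BMI1 was transcribed, at 1.37 and 3.18 RPKM in AD and 3.69 and 5.82 in AI without transfection, and did not pass the test (limma, adjusted p = 0.075). Of 44 classical Polycomb targets of development, 2 were members: PAX3, a neural crest factor, and WT1, a kidney and gonad factor. The WT1 start lay in a segment of 7103 bp, chr11:32432811-32439913, and WT1 RNA was at most 0.27 RPKM.

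A list of prostate genes known as EZH2 targets gave 3 members of 19 (15.8%), among them BMPR1B, a receptor for bone morphogenetic proteins, and SLIT2, a guidance ligand. AI-only segments covered 0.51% of the BMPR1B body and 1.09% of the SLIT2 body. SLIT2 was at 0.03 RPKM or less in every library. ZEB1 and ZEB2, repressors of epithelial genes, were the 2 members of 11 mesenchymal genes (18.2%), carried 5 and 3 segments and were at 0.06 RPKM or less throughout. Among androgen-induced genes TMEM100 was the single member of 25, and CHGB was the single neuroendocrine member of 12 (8.3%). None of the luminal, basal or blood and stromal lists had a member.

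Expression of the members was low in all 6 groups. The RNA table listed 860 of the 1488 member genes, and 267 (31.0%) passed the filter of 0.5 RPKM in at least 2 of 12 libraries. Of all listed genes that matched RefSeq, 57.9% passed. Member medians ran from 0.01 to 0.05 RPKM over the libraries, against 0.34 to 0.82 for all genes. In bulk RNA, fewer cells with a transcript and less transcript per cell cannot be told apart. Members without a base in any AD peak were higher: 73 of 119 listed genes (61.3%) passed, and their medians ran from 0.26 to 0.9 RPKM.

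The comparison of untreated AI with AD asked whether RNA of the member genes differed between the lines. Among the 267 tested members, 66 rose (24.7%) and 34 fell (12.7%) in AI (limma on log2(RPKM + 0.5), Benjamini-Hochberg adjusted p at most 0.05 over 14227 genes). Over all genes tested, 22.2% rose and 12.4% fell, so the members' shares were near the background. The median difference of members was 0.12, beside 0.13 for all genes. Of the 73 tested members without a base in any AD peak, 31.5% rose and 15.1% fell in the same fit. Of the 34 that fell, 14 were among 52 members that passed the filter through AD libraries alone, and 7 of the 66 that rose were among 14 that passed through AI libraries alone. The excess of rises depended on scaling and on the fit: quantile normalization gave 53 higher and 36 lower, trimmed mean scaling 47 and 45, and a fit of the untreated groups alone 17 and 18.

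PEG10 and SGCE fell the most among members together with SMYD2 and PLOD2. PEG10 is a retrotransposon-derived gene and SGCE encodes epsilon-sarcoglycan; they are neighbours, imprinted and read from the paternal copy. A segment of 3768 bp, chr7:94653773-94657540, spanned the 191 bp between the annotated genes and reached 2361 bp into SGCE and 1216 bp into PEG10. The nearest AD H3K27me3 peak lay 1278 bp away, and no EZH2 peak overlapped it. The bodies were not marked in AI alone: peaks covered 13.43% and 0% of PEG10 in the AD lists and 13.22% and 9.09% in the AI lists, and 8.14% and 5.08% of SGCE in AD against 17.36% and 15.64% in AI. PEG10 RNA was 10.26 and 11.84 RPKM in AD and 0.06 and 0.02 in AI without transfection, a fall of 4.42 ± 0.20 on the log2 scale (SE; limma, adjusted p = 6.6e-07). Mock libraries repeated the order with 13.71 and 15.5 in AD and 1.06 and 1.15 in AI (limma, adjusted p = 1.9e-06). SGCE was 2.23 and 2.79 RPKM in untreated AD and was listed at 0 in both untreated AI libraries; in mock it was 4.61 and 5.38 in AD and 0.15 and 0.03 in AI (limma, adjusted p = 1.3e-05). For both genes the lines did not overlap in any of the 3 states. SGCE stayed below 0.5 RPKM in every AI library and passed the filter through AD libraries alone, so its falls are a description. After siEZH2, PEG10 was at 0.27 and 0.7 and SGCE at 0.17 and 0.29 RPKM in AI, and neither change from mock passed the test.

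Other members fell in untreated cells and did not keep the order after mock transfection. SMYD2, a lysine methyltransferase, was 15.08 and 17.68 RPKM in AD and 0.65 and 1.08 in AI without transfection, a fall of 3.64 ± 0.19. In mock it was 8.56 and 9.47 in AD and 12.83 and 15.74 in AI, a rise of 0.63 ± 0.19 (limma, adjusted p = 0.018). PLOD2, a collagen lysyl hydroxylase, reversed likewise, from a fall of 2.62 ± 0.26 to a rise of 0.73 ± 0.26 (limma, adjusted p = 0.036). RIN2, an exchange factor for Rab5, and COL23A1, a transmembrane collagen, fell in both experiments. The falls were 2.19 ± 0.23 and 1.90 ± 0.19 in untreated cells and 2.15 ± 0.23 and 2.34 ± 0.19 in mock. RIN2 also stayed below 0.5 RPKM in every AI library and passed the filter through AD libraries alone, so its falls are a description.

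Strong rises were found among members in untreated cells as well, and most of these genes were lower in AI after mock transfection. TOX3, a chromatin factor of the HMG box family, was 0 and 0.03 RPKM in AD and 2.1 and 2.61 in AI without transfection (limma, adjusted p = 6.2e-05). In mock the order of TOX3 was opposite, at 6.63 and 7.04 in AD and 0.38 and 0.81 in AI, a fall of 2.77 ± 0.23 (limma, adjusted p = 8.6e-06). ATP2B1, the plasma membrane calcium pump, held 3 segments at least 594739 bp from any AD peak, and rose from 1.0 and 0.7 to 7.12 and 6.12 RPKM, by 2.40 ± 0.17. In mock ATP2B1 fell, from 2.72 and 2.6 in AD to 1.13 and 0.99 in AI, by 1.02 ± 0.17, a call lost under quantile normalization (0.34 lower). TLE1 rose by 2.17 ± 0.14 in untreated cells and was 0.20 ± 0.14 lower in mock, which did not pass the test. HSPA4L, a heat shock protein relative, CSMD1, XRCC4, a factor of DNA end joining, and DPYSL2, a regulator of microtubules in axons, rose by 1.20 to 1.28 in untreated cells. In mock HSPA4L fell by 1.03 ± 0.20, DPYSL2 by 1.08 ± 0.16 and CSMD1 by 0.55 ± 0.18, while XRCC4 was 0.11 ± 0.25 lower and did not pass. Under quantile normalization the mock call of HSPA4L was lost (0.36 lower) and CSMD1 turned to 0.10. In each of these genes the segment lay in the body and not at the annotated start, where one is given.

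In mock-transfected cells the same question gave 31 members higher (11.6%) and 114 lower (42.7%) in AI, beside 12.2% and 43.5% of all genes tested. The median difference was -0.39 for members and -0.41 for all genes, so every value of this comparison is read against a general shift of -0.41. The shift and the split depended on scaling: quantile normalization gave 79 members higher and 54 lower with a median of 0.02 over all genes, and trimmed mean scaling 49 and 83 with -0.16. Of the 114 that fell, 41 were among the 52 members that passed the filter through AD libraries alone. Of the 73 tested members without a base in any AD peak, 15.1% rose and 46.6% fell. CRIPT, a synaptic scaffold partner with 23.57% of its body inside a segment, rose the most among members, from 0.8 and 0.94 to 4.17 and 4.29 RPKM (1.79 ± 0.15; limma, adjusted p = 1.2e-05), and also rose in untreated cells by 0.76 ± 0.15. GBE1, the glycogen branching enzyme, rose from 10.97 and 12.41 to 32.45 and 32.25 RPKM, by 1.43 ± 0.13. TMEM135, PRKCE, TMTC2, DNAJC1, OXR1 and MLLT3 rose by 1.00 to 1.23. DNAJC1, a chaperone of the endoplasmic reticulum, rose in untreated cells too (0.81 ± 0.11).

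Falls in mock were steepest for FSD1, described below, SIPA1L2 and PEG10. SIPA1L2, a Rap GTPase activator of synapses, was 18.87 and 18.73 RPKM in AD and 1.44 and 1.58 in AI, a fall of 3.26 ± 0.12, but rose by 0.72 ± 0.12 in untreated cells. GNG4, a G protein gamma subunit, fell in both, by 1.83 ± 0.18 and 3.09 ± 0.18. PLA2G4A, the phospholipase that releases arachidonic acid, was 3.09 and 3.82 in AD mock and listed at 0 in both AI mock libraries.

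**Figure D4:**
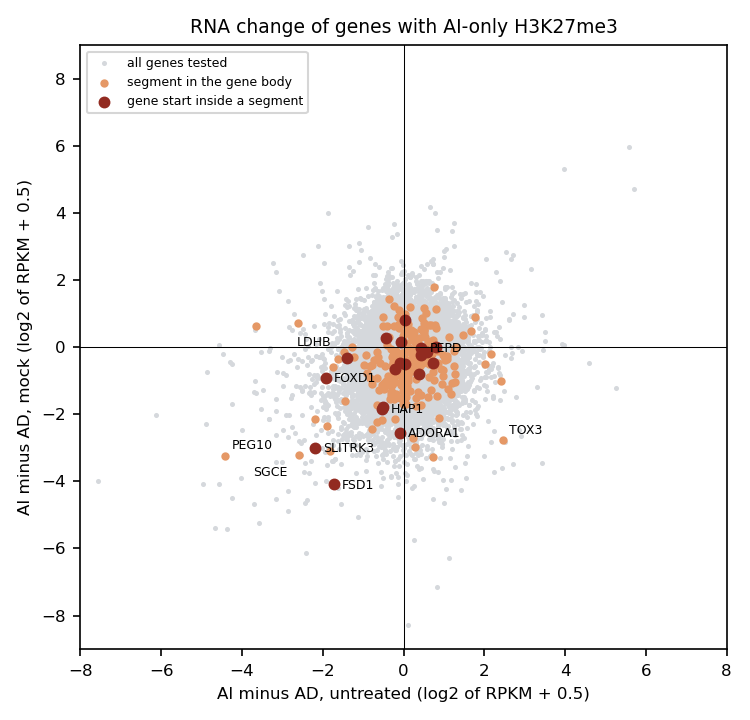
AI minus AD difference of log2(RPKM + 0.5) in untreated cells (horizontal) and in mock-transfected cells (vertical). Grey points are all 14227 genes tested, orange points members with a segment in the body and dark red points the 19 tested genes whose start lies in a segment. Members spread over the same range as all genes, and PEG10, SGCE, SLITRK3 and FSD1 lie at the lower left.

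The untreated and mock comparisons share no libraries, so a direction seen in both is a repeat within these lines. Of the tested members, 24 (8.99%) fell in both and 9 (3.37%) rose in both, against 7.4% and 3.62% of all genes. A further 25 (9.36%) rose in untreated cells and fell in mock, against 9.69%. By a test of the difference between the experiments, the AI minus AD value was higher in mock for 21 members (7.87%) and lower for 107 (40.1%), beside 8.99% and 41.2% of all genes tested. Quantile normalization turned the majority, with 52 higher and 37 lower, and trimmed mean scaling gave 39 and 67. The 9 that rose in both were BMPR1B, CRIPT, CXADR, DNAJC1, ITGB3BP, SH3GL2, TBC1D5, TOGARAM1 and ZCCHC7, of which BMPR1B and SH3GL2 passed the filter through AI libraries alone. BMPR1B was 0.44 and 0.41 RPKM in AD and 2.31 and 2.55 in AI without transfection (1.66 ± 0.18). Its mock rise of 0.49 ± 0.18 was called at an adjusted p of 0.043 by limma and was lost without any 1 of the 4 mock libraries.

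A segment over the start is the placement in which H3K27me3 is best known to accompany silence. A start position was given for 26246 of the RefSeq genes (not for PEG10, SGCE or ONECUT3), and 121 of them, 74 protein-coding, began inside an AI-only segment. These segments stood more often apart from AD marking: 49 of the 121 genes (40.5%) had a segment 5 kb or more from an AD peak and 29 (24.0%) one that touched it. An EZH2 peak of the first AD list lay on the segment of 26 (21.5%), and one of the AI list on that of 5 (4.1%). Of the coding promoters, 47.3% had a CpG observed/expected ratio of 0.6 or more, against 66.3% of all coding promoters and 44.9% of those whose start lay in a segment of all 4 lists.

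Of the 121 start genes, 65 were in the RNA table and 19 passed the filter, 5 of them through AD libraries alone (ADORA1, GAREM1, HAP1, MMP24 and SLITRK3). In untreated cells 2 of the 19 rose (PEPD and SH3GLB1) and 5 fell in AI, and in mock 1 rose (PDE10A) and 9 fell. FOXD1, FSD1, HAP1, LDHB and SLITRK3 fell in both experiments (26.3% of the 19). Over all genes tested 7.4% fell in both, and 12.4% and 43.5% fell in untreated and mock cells. Of 21 tested genes whose start lay in a segment of all 4 lists, 8 (38.1%) fell in untreated cells and 11 (52.4%) in mock. Only 3 genes with their start in an AD-only segment were tested, and none fell in either. With 19 genes, several of which could pass only by being high in AD, these shares describe the genes and support nothing about the class.

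FSD1 encodes a microtubule-associated protein of the brain. Its start lay in a segment of 2277 bp, chr19:4303959-4306235, 10878 bp from an AD peak, and 1 AD EZH2 list had a peak on it. The authors' scores of the AI peaks on the segment were 51.99 and 406.4. The first was close to 50.32, the lowest score in that list of a peak that held a segment. FSD1 was 1.13 and 2.15 RPKM in AD and 0.09 and 0.17 in AI without transfection, then 16.15 and 16.55 in AD mock and 0.18 and 0.94 in AI mock. The AD libraries were above the AI libraries in each experiment, and AD itself was much higher after transfection. The falls were 1.72 ± 0.33 (limma, adjusted p = 0.0038) and 4.09 ± 0.33 (limma, adjusted p = 8.7e-06).

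SLITRK3 encodes a transmembrane protein that organises inhibitory synapses. A segment of 4956 bp, chr3:165192361-165197316, covered its start, and the nearest AD peak was 233440 bp away. SLITRK3 was 3.51 and 5.81 RPKM in AD and 0.47 and 0.75 in AI without transfection, a fall of 2.19 ± 0.24 (limma, adjusted p = 0.00017). It was 2.93 and 4.15 in AD mock and listed at 0 in all 4 transfected AI libraries. The lines did not overlap in any state.

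FOXD1 encodes a forkhead factor of kidney stroma, and its whole annotated body of 2512 bp lay inside a segment of 11111 bp, chr5:73443127-73454237, 36734 bp from AD marking. It was 3.19 and 3.18 RPKM in AD and 0.31 and 0.66 in AI without transfection, a fall of 1.93 ± 0.19 (limma, adjusted p = 0.0001). In mock it was 7.64 and 5.73 in AD and 3.02 and 3.53 in AI, a fall of 0.92 ± 0.19 that was lost under quantile normalization (0.32 lower; limma, adjusted p = 0.247).

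LDHB, a subunit of lactate dehydrogenase, was the most abundant gene with its start in a segment. The segment of 5630 bp, chr12:21656334-21661963, lay 6612 bp from AD marking, with 2 more AI-only segments in its body and over its 3′ end and 2 upstream of it. LDHB was 319.6 and 285.46 RPKM in AD and 120.21 and 107.51 in AI without transfection, a fall of 1.41 ± 0.11 (limma, adjusted p = 2.7e-05). It was 326.16 and 371.73 in AD mock and 269.33 and 287.14 in AI mock, where the fall of 0.32 ± 0.11 was less than the general shift and was lost under trimmed mean scaling (0.01 lower). A gene with its start in an AI-only segment was thus still read at over 100 RPKM.

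HAP1, huntingtin-associated protein, was 0.68 and 0.9 RPKM in AD and 0.39 and 0.4 in AI without transfection (adjusted p = 0.041 by limma, lost without any 1 of these 4 libraries), and 1.76 and 2.27 in AD mock and 0.24 and 0.17 in AI mock (1.83 ± 0.17 lower). ADORA1, the A1 adenosine receptor, did not separate in untreated cells, at 0.55 and 0.35 in AD and 0.5 and 0.29 in AI. In mock it was 2.86 and 2.84 in AD and 0.09 and 0.06 in AI, a fall of 2.54 ± 0.18 (limma, adjusted p = 3.8e-06). RTN2, a reticulon that shapes endoplasmic reticulum, was 0.51 ± 0.23 lower in untreated AI, which did not pass the test (limma, adjusted p = 0.12), and fell by 1.77 ± 0.23 in mock. GAREM1 and GXYLT2 fell in mock by 0.80 ± 0.26 and 0.64 ± 0.18, and neither call held under quantile normalization, where GXYLT2 stood at 0.0.

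Some starts inside segments went with RNA whose difference between the lines did not pass the test. ZBTB18, a repressor of neuronal differentiation genes, had its start in a segment of 5830 bp and was 2.43 and 3.11 RPKM in AD and 2.27 and 2.89 in AI without transfection. UTRN, the utrophin gene, was 3.69 and 4.83 in AD and 2.83 and 3.18 in AI without transfection (limma, adjusted p = 0.098). PDE10A, a cyclic nucleotide phosphodiesterase, was 1.67 and 2.3 in AD and 1.78 and 2.34 in AI without transfection. In mock PDE10A rose from 0.1 and 0.07 to 0.38 and 0.72 RPKM (0.83 ± 0.21).

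**Figure D5:**
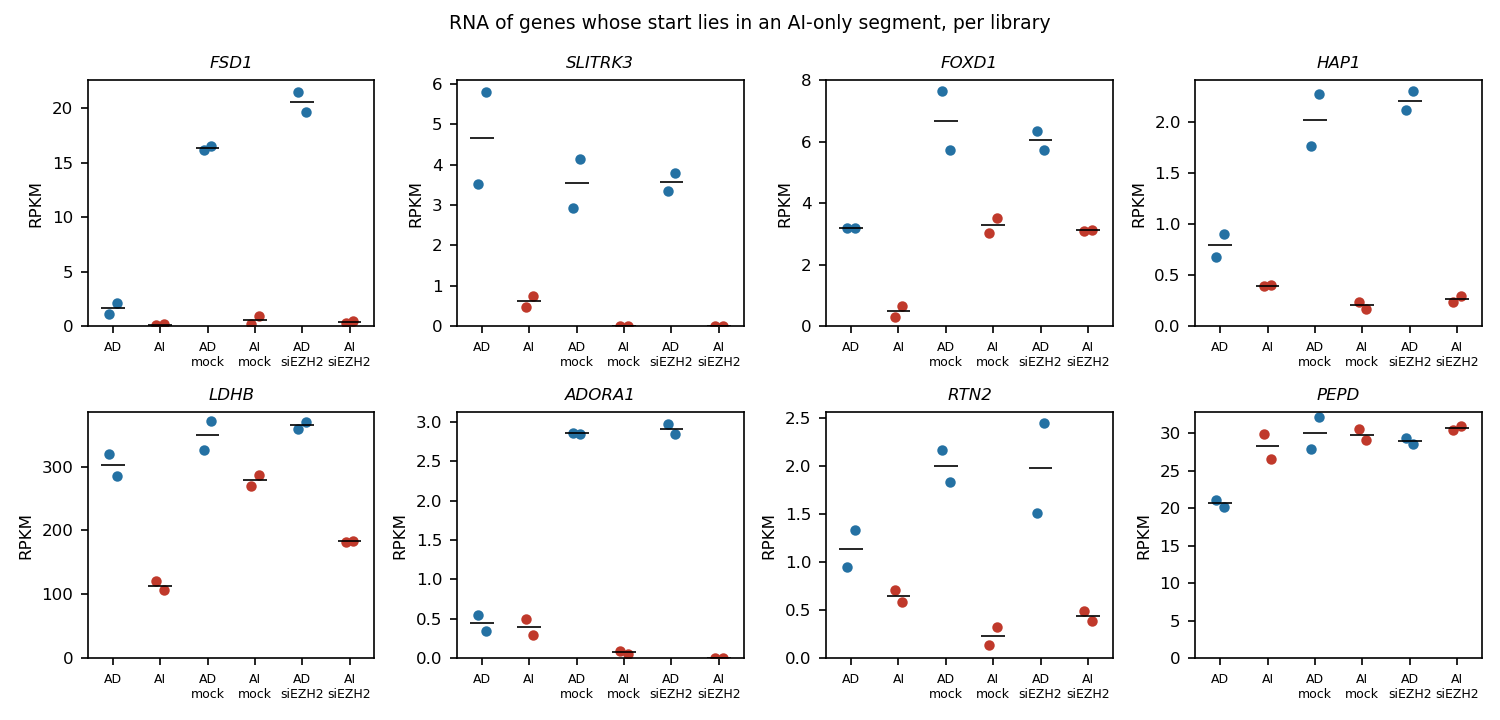
RPKM of 8 genes whose annotated start lies in an AI-only segment, in every RNA-seq library (points: AD blue, AI red; lines: mean of 2 libraries). FSD1, SLITRK3 and HAP1 are lower in AI in every state, whereas PEPD is at a like level in both lines after transfection.

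The EZH2 siRNA asked whether the member genes change when the H3K27 methyltransferase is targeted. This comparison shares its mock libraries with the mock comparison of the lines. EZH2 RNA itself was 5.21 and 6.94 RPKM in AD and 10.11 and 12.62 in AI without transfection, and in mock the order was opposite, at 10.95 and 12.48 in AD and 7.07 and 5.44 in AI. After siEZH2 it was 3.6 and 4.33 in AI, 0.59 ± 0.18 lower than mock (limma, adjusted p = 0.13), and 11.52 and 10.73 in AD, 0.07 ± 0.18 lower. The 2 AI groups did not overlap and the AD groups did, and neither change passed the test, so a depletion was not shown at the RNA level.

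No member rose after siEZH2 in AI and 4 of 267 (1.5%) fell by limma, beside 0.0703% and 1.39% of all genes, with 62 members (23.2%) and 18.8% of all genes at an unadjusted p under 0.05. The 4 were LDHB, ITGB3BP, ABCD3 and DYM. Of the 73 tested members without a base in any AD peak, 3 (4.11%) fell and 27 (37.0%) had an unadjusted p under 0.05 by limma. LDHB was 182.43 and 184.26 RPKM after siEZH2 against 269.33 and 287.14 in mock, a fall of 0.60 ± 0.11 (limma, adjusted p = 0.04). ITGB3BP, a centromere protein, fell by 0.89 ± 0.15, ABCD3, a peroxisomal transporter, by 0.86 ± 0.13 and DYM, a Golgi protein, by 0.65 ± 0.13. Every one of the 4 calls was lost when any 1 AI library was left out and under both other scalings. In AD no member passed by limma in either direction, beside 0.0141% of all genes higher and 0% lower, with 11 members (4.12%) and 3.82% of all genes at an unadjusted p under 0.05. In AI after siEZH2, FSD1 was at 0.28 and 0.51 RPKM, HAP1 at 0.24 and 0.29 and FOXD1 at 3.1 and 3.14, and none of these differed from mock by the test.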

How the data were processed

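H3K27me3 and EZH2 ChIP were deposited by the authors as 1 peak list per sample against its input, with a score per peak (the authors' own value). Per the submitters' processing notes the tools named include cutadapt and Bowtie2, with GRCh38. RNA-seq (poly(A)) and RNA immunoprecipitation were deposited as RPKM per gene, with cutadapt and TopHat2 among the tools named in the same notes. Strand use in counting is not given in the sources used here, so antisense and overlapping genes are uncertain. Peak calls, not coverage, were used, so a base outside a peak is uncalled, not shown to lack the mark.

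Peaks were intersected and subtracted in base pairs (Python 3.11.15, pandas 2.3.3). Genes came from RefSeq (GRCh38.p14). RNA was tested with limma 3.58.1 (R 4.3.3) on log2(RPKM + 0.5), with 1 coefficient per group over 12 libraries, a filter of 0.5 RPKM in at least 2 libraries and Benjamini-Hochberg adjustment at 0.05 over 14227 genes. A fold change on this scale understates the change of low genes. On simulated data of 14227 genes this test recovered 55% of 100 genes changed by 1 and 87% of 100 changed by 2 on the log2 scale. It made 11 false calls among the unchanged genes. The simulated libraries were independent, with few changed genes and no general shift, so the false calls do not carry over to these comparisons. Intervals are exact Clopper-Pearson at 95% (scipy 1.17.1) and cover counting error only. RNA depth was estimated from the steps between low RPKM values. Named genes were EZH2, the 8 largest called rises and 8 largest called falls between the lines in each state (mean of at least 1 RPKM, groups not overlapping), up to 10 called genes with their start in a segment, up to 8 called after siEZH2, the 10 longest segments and members of the fixed lists. Some genes that the rule names are not reported here. ZBTB18, UTRN, the genes with most segments and those of chromosome 9 were named after their values were seen. The segments, members and lists were chosen with earlier results of these data known. Alternatives covered the pseudocount, filter, scaling, libraries and segment rule.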

Additional observations from a re-analysis of the deposited data

Results flagged for a closer look

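The AI minus AD difference was not the same in mock-transfected as in untreated cells for 32 named genes, by a test of the difference itself (limma, adjusted p from 7.08e-07 to 0.0485). Values are the mock difference minus the untreated difference of log2(RPKM + 0.5), and the median over all genes tested was -0.54. Over the 267 tested members 21 were higher (7.87%) and 107 lower (40.1%), beside 8.99% and 41.2% of all genes, while quantile normalization gave 52 higher and 37 lower.

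The value was above 0 for 10 genes: SMYD2 (4.27), PLOD2 (3.35), GBE1 (1.8), TMEM135 (1.46), PEG10 (1.18), LDHB (1.08), PRKCE (1.04), CRIPT (1.03), FOXD1 (1.01) and MLLT3 (0.97). It was below 0 for the other 22: TOX3 (-5.24), SIPA1L2 (-3.98), ATP2B1 (-3.42), PLA2G4A (-3.26), ADORA1 (-2.46), TLE1 (-2.38), FSD1 (-2.36), HSPA4L (-2.31), DPYSL2 (-2.28), CSMD1 (-1.79), XRCC4 (-1.35), HAP1 (-1.31), GNG4 (-1.26), RTN2 (-1.26), TCERG1L (-1.26), ABCD3 (-1.2), GAREM1 (-1.18), BMPR1B (-1.18), ROBO1 (-1.12), CDH12 (-0.69), MAGI2 (-0.69) and PEPD (-0.45). For PEG10 and FOXD1 a positive value means a smaller fall in mock than in untreated cells, while SMYD2 and PLOD2 were called lower in untreated and higher in mock AI. TOX3, SIPA1L2, ATP2B1, HSPA4L, DPYSL2, CSMD1, ABCD3 and ROBO1 were called higher in untreated and lower in mock AI. EZH2 itself was higher in untreated AI and lower in mock AI, and its part in these differences was not tested.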

How the results depend on the processing

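Counts of members are given in the order higher, lower. Untreated counts of 66 and 34 became 17 and 18 with only the groups compared, 2 and 5 over start genes (19 tested), 0 and 1 where at least 50% of the body is inside segments (6 tested), and 8 and 6 for segments of 5 kb or more (39 tested). Leaving out 1 library gave 40 to 60 and 25 to 29, with the lowest, 40, without AD replicate 1. Mock counts of 31 and 114 became 79 and 54 under quantile normalization and 49 and 83 under trimmed mean scaling, 1 and 9, 0 and 1, and 3 and 19 over the same 3 gene sets, and 15 to 24 and 90 to 100 without 1 library. The 4 members lower after siEZH2 in AI became 1 with no filter on low values, 0 under either scaling, with only the groups compared and without any 1 library, and 1, 0 and 1 over the gene sets. Difference-of-differences counts of 21 and 107 became 52 and 37 under quantile normalization, 39 and 67 under trimmed mean scaling, 3 and 8, 1 and 0, and 4 and 16 over the gene sets, and 18 to 24 and 83 to 111 without 1 library. Signs turned under quantile normalization in mock for CSMD1 (0.10), GXYLT2 (0.00), ABCD3 (0.11) and ROBO1 (0.18), and under trimmed mean scaling for PEPD (0.30). Of the other values of named genes, 2154 kept their status as called or not called, 118 lost a call and 11 gained one. The 2154 include values called in neither fit, also where the sign turned. The number of segments, 4331, was 17042 at 1 kb, 246 at 5 kb, 2577 with AD peaks widened by 1 kb, 7306 for scores of at least 100, 13165 with only the AD intersection subtracted and 6711 to 10724 without 1 list. At 5 kb the EZH2 shares were 24.39%, 8.54% and 5.69%. The cause of these changes was not tested beyond the smaller sets of genes and libraries. With the replicate number as a block, counts were 71 and 36 untreated, 31 and 118 in mock, 0 and 6 after siEZH2 in AI and 22 and 109 for the difference of differences. Deviations of same-numbered libraries from their group means correlated at 0.70 between untreated AD and AI, and at 0.13 or less in every other pair of groups. Estimated depth of these libraries also went by number, at 17.4 and 18.5 M in replicate 1 and 58.1 and 50.9 M in replicate 2. The untreated libraries may thus share a batch by number, which no label states and which was not tested. The main fit takes no pairing, and the block was common to all 6 groups. Estimated RNA depth was lowest in AI cells after siEZH2, at 7.74 and 7.5 M, which limits low genes there. In mock it was 8.9 and 12.7 M in AI and 9.5 and 11.9 M in AD.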

Other observations

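In RNA immunoprecipitation with an EZH2 antibody, the median over 764 member genes was 0.05 and 0.08 RPKM in AD and 0.06 and 0.12 in AI, against 0.34 and 0.5 in AD and 0.3 and 0.57 in AI over all listed genes. With the control antibody the medians of members were 0 and 0.1 in AD and 0 and 0 in AI, and those of all listed genes 0 and 0.57 in AD and 0 and 0 in AI. In the second AD pair the control was thus above the EZH2 antibody, and these values do not show RNA bound by EZH2.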
